A study of Mus musculus with 9 samples.

Results

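Transcripts of 10 genes that make bile acids, conjugate them or carry them across the hepatocyte membrane were followed in mouse liver. The genes were Cyp7a1, Cyp7b1, Cyp8b1, Cyp27a1, Hsd3b7, Akr1d1, Baat, Slc27a5, Slc10a1 and Abcb11, and every non-control probe that the array files name for them was taken, which gave 15 probes for the 10 genes out of 37074 gene names on the array. The livers came from male mice whose labelled age was 12 months, while the text of the study counts these months from vector injection and its methods describe a shorter high fat feeding than its results do. AAV-V mice carried an empty adeno-associated virus vector and ate a normal diet, AAV-GP73 mice carried the same kind of vector expressing the Golgi protein GP73 and ate a normal diet, and AAV-V HFD mice carried the empty vector and ate a high fat diet (HFD). All 3 groups had therefore received a vector, none was left without one, and each group had 3 one-colour Agilent arrays of total liver RNA. The labels do not say whether an array held RNA of 1 mouse or of a pool, so the p values measure the spread between these arrays.

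Hepatocytes turn cholesterol into primary bile acids. Cyp7a1, the rate-limiting hydroxylase, opens the classic route, Cyp27a1 and Cyp7b1 serve the alternative route that starts from oxysterols, and Cyp8b1 adds the hydroxyl group that distinguishes cholic acid. Hsd3b7 and Akr1d1 modify the sterol rings, and peroxisomal enzymes shorten the side chain. Slc27a5 activates the acid with coenzyme A, and Baat joins it to taurine or glycine. Slc10a1 (NTCP) takes bile acids up from the blood, and Abcb11 (BSEP) pumps them into the canaliculus.

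A probe was called detected where the scanner software marked it well above background. The AAV-V arrays were the dimmest, with 10.2% to 10.7% of spots detected, against 16% to 18.4% in AAV-GP73 and 13.8% to 16.7% in AAV-V HFD. Signals are given on a scaled log2 scale, on which the 75th percentile of the 4864 spots detected on all 9 arrays was set equal, and on this scale an undetected probe can read higher on a dim array than on a bright array. The median log2 difference over the 5763 genes tested was 0.39 for AAV-GP73 against AAV-V and 0.01 for AAV-V HFD against AAV-V. Other scalings moved the first from -0.69 to 2.33 and the second from -1.01 to 1.74, so each difference is also placed against the median of all genes tested. The main scaling, the 75th percentile of all probes, the median and spike-ins each move an array by a constant. They cannot change the distance from that median, so their agreement on it below is fixed in advance. Only quantile normalization, normexp background correction and the authors' values can move that distance. Normexp adds an offset of 50 to every signal, which exceeds the AAV-V median signals of 36.4 to 41.8 over spots detected on all 9 arrays. An offset of that size shrinks the differences of dim probes before the arrays are scaled, which limits what the normexp values below can show. AAV-V and AAV-GP73 shared a slide in separate columns, and AAV-V HFD lay on another slide, so diet and slide cannot be told apart. Golm1, which encodes GP73, was not detected on any array, and the vector's product could not be used to check the labels.

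All 8 hepatocyte markers (Alb, Ttr and others) were detected on every AAV-V and AAV-GP73 array, and 7 of the 8 on every AAV-V HFD array, the exception being Cps1. Their summed scaled signal ranged from 21300 to 26900 in AAV-V, from 16900 to 21500 in AAV-GP73 and from 8220 to 17500 in AAV-V HFD. None of the 8 cholangiocyte markers was detected on all arrays of any group, and Krt19 and Epcam were detected on no array. In bulk liver RNA, fewer cells of a type and less RNA per cell cannot be told apart.

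The probes on which the results turn are shown first, each as 30 of its 60 bases, 5′ to 3′, with the position of the whole probe on mm9. Capitals mark letters that lie in a stretch of at least 16 bases shared, on the same strand, with a probe of another gene. The exon or untranslated region that a probe lies in was not analysed here.
Cyp7b1, chr3:17972286-17972345: ttggttgagatcaatccagttggttttggg
Hsd3b7, chr7:134947251-134947310: ttagcttcctcccctaggatgccaacctgt
Akr1d1, chr6:37482505-37482564: agtgaagacagctattgatgaggggtaccg
Slc27a5, chr7:13573701-13573760: tgtccgggttccagatgcccatggcccagt
Slc10a1, brighter probe, chr12:82056539-82056598: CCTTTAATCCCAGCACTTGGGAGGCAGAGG
Slc10a1, dimmer probe, chr12:82054180-82054239: ccacaacctgcttcatgttgtaactcaaaa
Only the brighter Slc10a1 probe had capitals over its whole printed stretch (its bases 10 to 39), and it shared 16 bases or more with probes of 11 other genes. These letters are those of a common mouse short interspersed repeat. The array's annotation lists 4 RefSeq transcripts for this probe, which belong to Slc10a1, Med16, Spc24 and 4930402H24Rik, so its signal cannot be assigned to Slc10a1 alone. The dimmer Slc10a1 probe shared no such stretch, and the other members' probes shared none except that of Abcb11, which shared it with 1 probe of another gene.

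Among the members, 3 gave no measurable signal. Cyp7a1 with 2 probes, Cyp8b1 with 1 and Cyp27a1 with 1 stayed undetected on all 9 arrays, and none was tested. Their unscaled processed signals lay between 1.34 and 4.89 and no direction is given for them. The remaining 7 members were detected on every array of at least 1 group and were tested: 7 of 7 in AAV-GP73, 4 in AAV-V HFD and 2 in AAV-V were detected on all 3 arrays. Passing this filter through AAV-GP73 alone favours a difference, so the counts below describe the members and are not support for one.

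Against AAV-V, AAV-GP73 livers showed higher Cyp7b1, Hsd3b7 and Slc27a5 and lower Akr1d1, while Baat, Abcb11 and Slc10a1 did not pass both thresholds (limma, fold change of at least 2 and Benjamini-Hochberg adjusted p under 0.05). Thus 3 of the 7 tested members were called higher, where the share over all genes tested was 25.1%, and 1 was called lower, where that share was 20.8%. The median log2 difference of the 7 members was 0.84. AAV-V HFD livers showed higher Hsd3b7 alone, that is 1 of 7 called higher against 13.0% of all genes and 0 of 7 called lower against 23.9%. The median of the members was 0.05 there, near the 0.01 of all genes. The AAV-GP73 and AAV-V HFD comparisons share the AAV-V arrays and are not independent of each other.

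**Figure D1:**
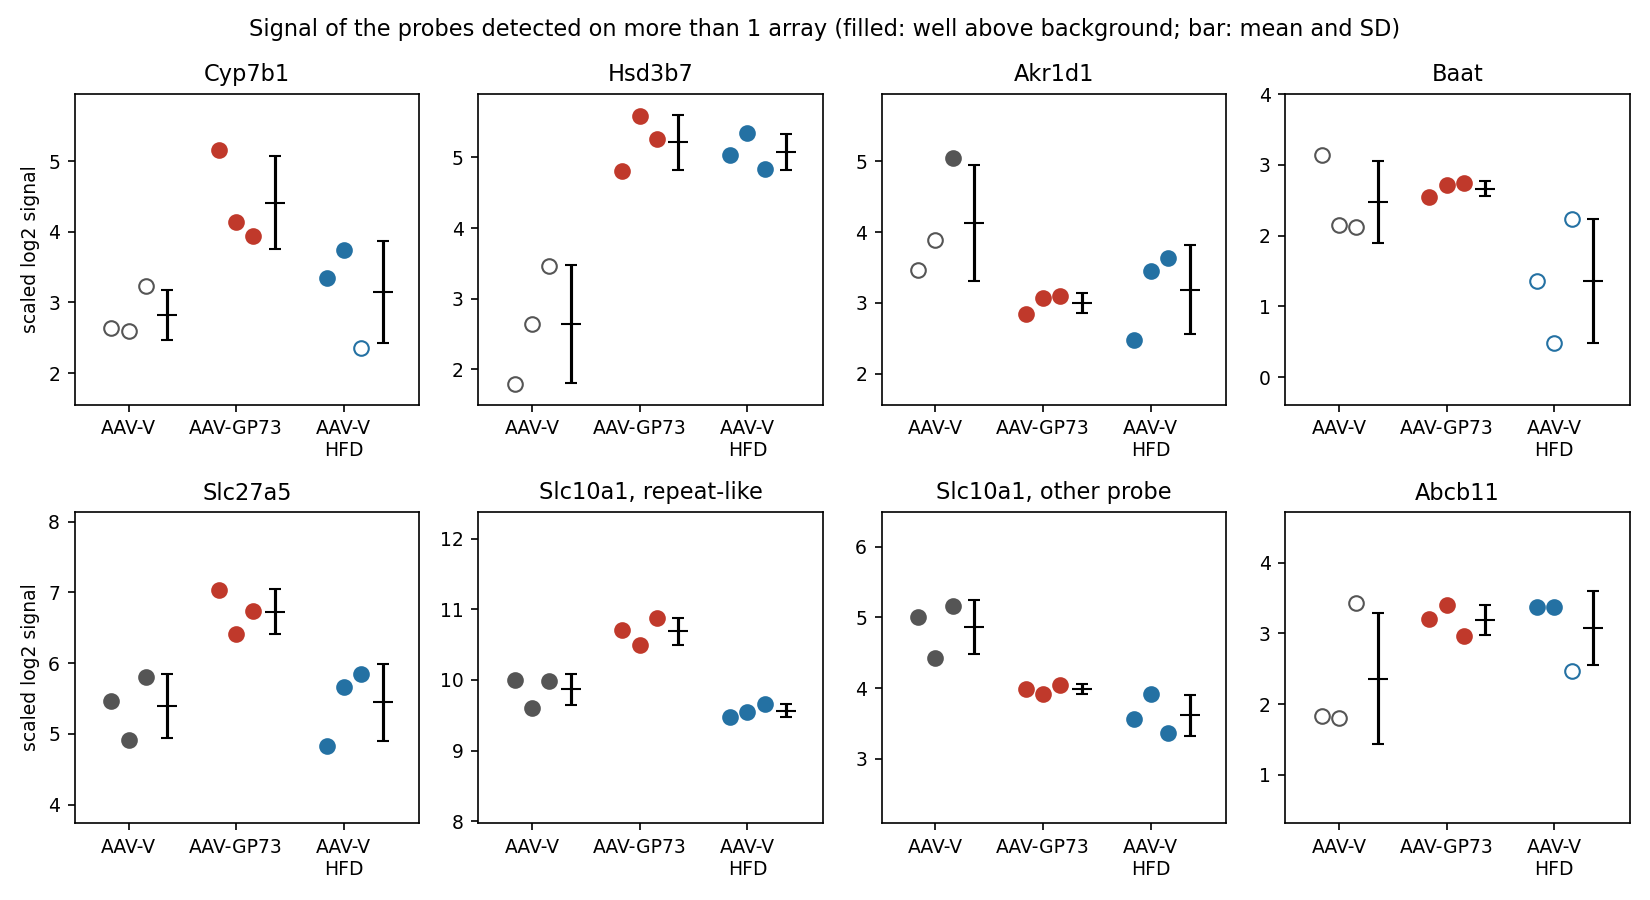
Scaled log2 signal (vertical axis) of each array for the 8 member probes that were detected on more than 1 array, in AAV-V (grey), AAV-GP73 (red) and AAV-V HFD (blue), 3 arrays each. Filled points were well above background and open points were not, and the bars give the mean and SD; Hsd3b7 and Cyp7b1 are open on every AAV-V array, and the probes of Slc10a1 order the groups differently.

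Hsd3b7, the 3β-hydroxysteroid dehydrogenase that acts after the first hydroxylation, showed the largest difference among the members. Its scaled log2 signal was 1.8, 2.65 and 3.47 on the AAV-V arrays, 4.8, 5.58 and 5.26 on the AAV-GP73 arrays, and 5.04, 5.34 and 4.84 on the AAV-V HFD arrays. It was undetected on all AAV-V arrays and detected on all 6 others, and neither group overlapped AAV-V. The log2 difference was 2.57 (SE 0.41, adjusted p = 0.000594) for AAV-GP73 and 2.43 (SE 0.41, adjusted p = 0.00138) for AAV-V HFD. With the undetected AAV-V signals set to the lowest detected signal of their arrays, or to their own value where that was higher, Hsd3b7 was at least 2.25-fold higher in AAV-GP73 and at least 2.04-fold higher in AAV-V HFD. These bounds hold for the main scaling, and were 2.01-fold and 1.9-fold with the median and 8.6-fold and 6.74-fold with spike-ins. Hsd3b7 lay above the median of all genes under all 7 scalings in both comparisons, although the difference itself turned to -0.18 and -0.4 after normexp background correction, which ended both calls.

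Cyp7b1, the oxysterol 7α-hydroxylase, was detected throughout AAV-GP73 and never in AAV-V. Its signal was 2.64, 2.59 and 3.23 in AAV-V, 5.16, 4.14 and 3.94 in AAV-GP73, and 3.35, 3.74 and 2.35 in AAV-V HFD, where the lowest array was undetected. AAV-GP73 did not overlap either of the other groups. The log2 difference of AAV-GP73 from AAV-V was 1.59 (SE 0.43, adjusted p = 0.00958), and at least 1.29-fold from the detection bound (1.15-fold with the median scaling). It was above the median of all genes under all 7 scalings, and the difference turned to -0.53 after normexp, which ended the call. In AAV-V HFD the difference was 0.33 (adjusted p = 0.563), and a bound gave no fold. It was called higher there with the 75th percentile of all probes (1.55), quantile normalization (1.22), spike-ins (2.05) and the authors' values (1.37), and lower after normexp (-1.02). The other Cyp7b1 probe was detected only on the first AAV-GP73 array and was not tested.

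Akr1d1, the Δ4-3-oxosteroid 5β-reductase, was the only member called lower. Its signal was 3.46, 3.89 and 5.05 in AAV-V, 2.84, 3.07 and 3.09 in AAV-GP73, and 2.47, 3.45 and 3.64 in AAV-V HFD. Only the third AAV-V array detected it, against all arrays of the other groups, so on the AAV-V side the value rests mostly on undetected spots. The log2 difference was -1.13 (SE 0.43, adjusted p = 0.0464) in AAV-GP73 and -0.94 (adjusted p = 0.102) in AAV-V HFD, where it was called lower after normexp (-1.22). Leaving out any of 6 arrays ended the call (adjusted p 0.0564 to 0.165, with a difference of -0.67 without the third AAV-V array), and so did the 75th percentile of all probes (-0.04, adjusted p = 0.928), quantile normalization (-0.85, adjusted p = 0.0549), the authors' values (-0.86, adjusted p = 0.0653) and spike-ins, with which it turned to 0.8 in AAV-GP73. The unscaled processed signals were 5.22, 6.77 and 13 in AAV-V and 9.79, 11.6 and 14.3 in AAV-GP73, so before scaling the AAV-GP73 arrays were not the lower ones. The other Akr1d1 probe was detected on no array.

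Slc27a5, the bile acyl-CoA synthetase, was the only called member that was detected on all 9 arrays. Its signal was 5.46, 4.92 and 5.81 in AAV-V, 7.04, 6.41 and 6.74 in AAV-GP73, and 4.83, 5.67 and 5.84 in AAV-V HFD. Every AAV-GP73 array lay above every other array, and AAV-V and AAV-V HFD overlapped. The AAV-GP73 difference was 1.34 on the log2 scale, or 2.53-fold (SE 0.36, adjusted p = 0.00988). It was positive and above the median of all genes under all 7 scalings, from 0.36 to 3.27, but the call was lost after normexp (0.36, adjusted p = 0.217). The AAV-V HFD difference was 0.05 (95% interval -0.75 to 0.84, adjusted p = 0.928), and it was called higher with the 75th percentile of all probes (1.27) and with spike-ins (1.77).

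Baat, which completes the conjugation that Slc27a5 starts, was detected on the 3 AAV-GP73 arrays and nowhere else. Its signal was 3.14, 2.15 and 2.12 in AAV-V, 2.54, 2.71 and 2.75 in AAV-GP73, and 1.36, 0.48 and 2.24 in AAV-V HFD. AAV-GP73 lay inside the range of the undetected AAV-V spots, and the difference of 0.2 (adjusted p = 0.708) did not pass, although it was called with the 75th percentile of all probes (1.3) and with spike-ins (2.14) and turned to -0.86 after normexp. In AAV-V HFD it was -1.1 (adjusted p = 0.0637), between groups of which neither was detected, and it was called lower with the median scaling (-1.2), after normexp (-1.3) and with no filter on dim probes. The other Baat probe was detected on no array.

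Of the transporters, Slc10a1 gave opposite readings on its probes in AAV-GP73 after the main scaling. The brighter probe read 10, 9.61 and 9.99 in AAV-V, 10.7, 10.49 and 10.87 in AAV-GP73, and 9.48, 9.55 and 9.66 in AAV-V HFD. The dimmer probe read 5.01, 4.43 and 5.16 in AAV-V, 3.99, 3.92 and 4.05 in AAV-GP73, and 3.56, 3.92 and 3.36 in AAV-V HFD. Both were detected on all 9 arrays. On the brighter probe every AAV-GP73 array lay above every AAV-V array, and on the dimmer probe every AAV-GP73 array lay below them. The unscaled processed signals of the dimmer probe were 15.4, 9.85 and 14 in AAV-V and 21.8, 21 and 27.8 in AAV-GP73. Before scaling, the AAV-GP73 arrays were therefore not the lower ones. Its scaled AAV-V readings were also near the lowest detected signals of those arrays, 3.83, 3.89 and 4.42.

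The log2 difference of AAV-GP73 from AAV-V was 0.82 (SE 0.27, adjusted p = 0.027) on the brighter probe and -0.88 (SE 0.3, adjusted p = 0.0304) on the dimmer probe (in the fit of single probes), each under the 2-fold threshold. The brighter probe was called higher under 5 of the 6 other scalings, at 1.91 with the 75th percentile of all probes, 1.06 with quantile normalization, 2.75 with spike-ins, 1.14 after normexp and 1.19 with the authors' values. Under all 7 scalings the brighter probe stayed above the median of all genes and the dimmer probe below it, although the dimmer probe's own difference turned to 0.22 with the 75th percentile of all probes and to 1.06 with spike-in scaling. In AAV-V HFD the brighter probe differed by -0.3 (adjusted p = 0.388) and the dimmer probe by -1.25 (SE 0.3, adjusted p = 0.0074), which was called in the fit of single probes and turned to 0.48 with spike-in scaling. The brighter probe turned to 1.42 with spike-ins there and was called higher. Of the 11 probes of other genes that share the repeat stretch, 2 were detected on all arrays, those of Tm6sf1 and TC1653005. They differed by 0.35 and 0.26 in AAV-GP73 livers and by -0.58 and -0.92 in AAV-V HFD livers, the same signs as the brighter Slc10a1 probe. In AAV-GP73, however, both lay below the median of all genes, 0.39, whereas the brighter Slc10a1 probe lay above it. What part the repeat has in that probe's signal was not tested. The array's annotation also names the brighter and dimmer probes after different RefSeq transcripts of Slc10a1. Whether they read different transcripts of the gene was not tested.

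Abcb11, the canalicular export pump, was undetected in AAV-V, detected on all AAV-GP73 arrays and on 2 of 3 AAV-V HFD arrays. Its signal was 1.84, 1.81 and 3.43 in AAV-V, 3.21, 3.4 and 2.97 in AAV-GP73, and 3.38, 3.38 and 2.47 in AAV-V HFD. The third AAV-V array, though undetected, read above every other array, so all groups overlapped. The differences of 0.84 (adjusted p = 0.134) and 0.72 (adjusted p = 0.215) did not pass, and the detection bound gave no fold. Both became calls with the 75th percentile of all probes (1.93 and 1.95), quantile normalization (1.8 and 1.92), spike-ins (2.77 and 2.44), the authors' values (2.06 and 2.17) and without the third AAV-V array (1.37, adjusted p = 0.0103, and 1.25, adjusted p = 0.0213). After normexp they turned to -0.81 and -1.05, the second of which was called lower.

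**Figure D2:**
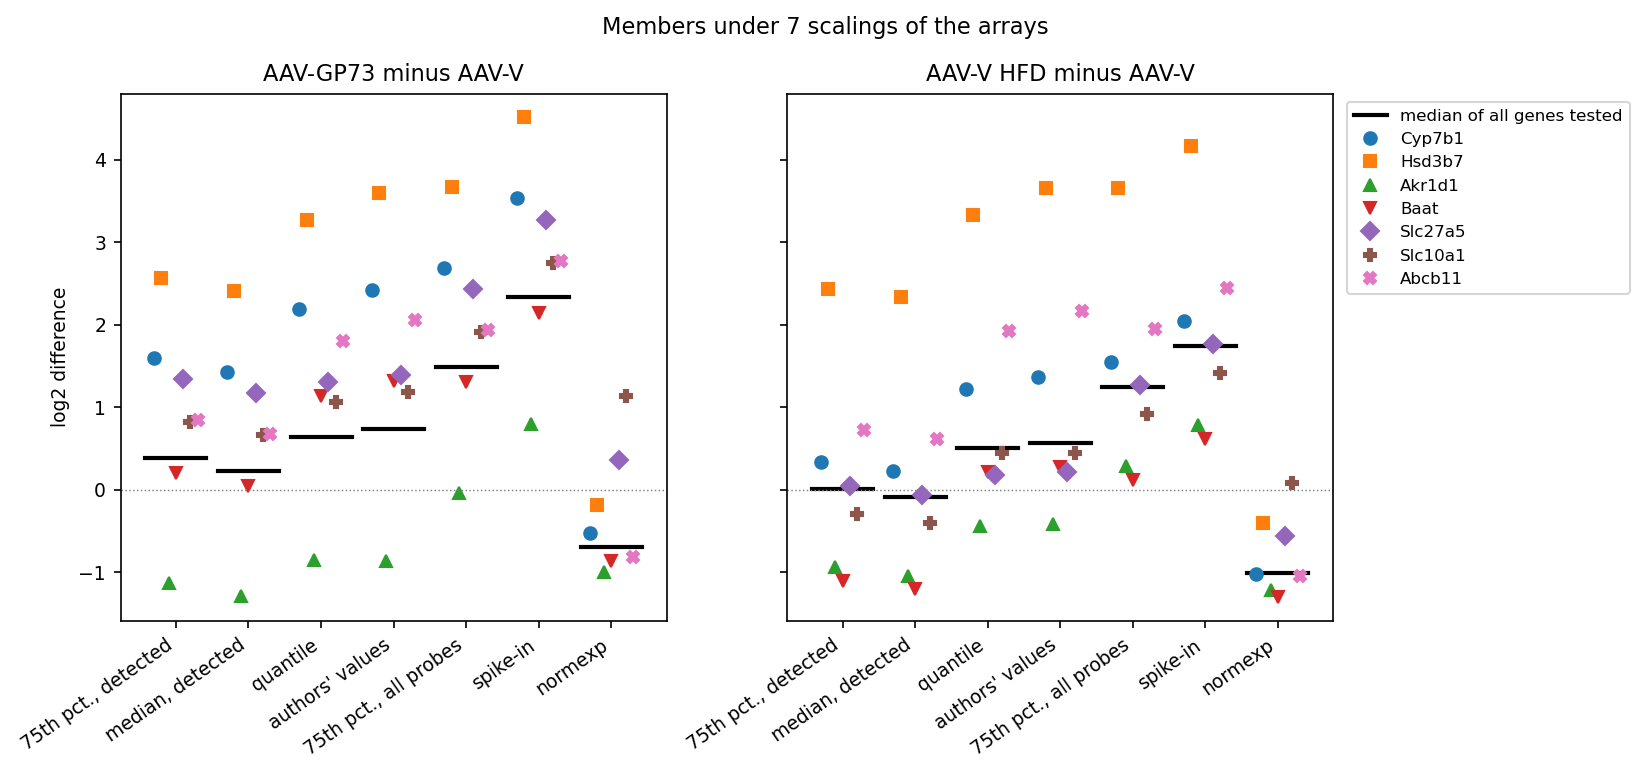
Log2 difference (vertical axis) of the 7 tested members from AAV-V, each by its brightest probe, under 7 ways of scaling the arrays (horizontal axis), for AAV-GP73 (left) and AAV-V HFD (right). Black bars mark the median of all genes tested, from -0.69 to 2.33 on the left; the members move with this bar, Hsd3b7 is above it and Akr1d1 below it throughout, and Slc10a1 is shown by its repeat-sharing probe.

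AAV-GP73 was also compared with AAV-V HFD directly. None of the 7 tested members was called (limma), where the shares over all genes tested were 1.44% in the upward and 0.0521% in the downward direction. Before adjustment, 4 had a p under 0.05 and were higher in AAV-GP73: Cyp7b1 by 1.27 (adjusted p = 0.17), Baat by 1.31 (adjusted p = 0.164), Slc27a5 by 1.29 (adjusted p = 0.101) and the brighter Slc10a1 probe by 1.12 (adjusted p = 0.0655). Among all 5763 genes tested, 895 had an unadjusted p under 0.05 in this comparison, in either direction (limma). Cyp7b1 and Baat were detected on all 3 arrays of AAV-GP73 alone and entered the test through that group. Baat was at least 1.36-fold higher from the detection bound (1.12-fold with quantile normalization), its AAV-V HFD arrays being undetected. For Hsd3b7 the difference was 0.14 with a 95% interval of -0.75 to 1.04, for Akr1d1 it was -0.19 (-1.13 to 0.76), for Abcb11 0.12 (-0.86 to 1.09), and for the dimmer Slc10a1 probe 0.37 (-0.28 to 1.03). These intervals do not show that the groups were alike.

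A wider list of 15 other enzymes and proteins of bile acid synthesis ran from side-chain shortening to electron donors of the hydroxylases. Of these 11 were tested, and AAV-GP73 livers had 8 called higher and 0 lower, against 25.1% and 20.8% of all genes, and AAV-V HFD livers 6 and 0, against 13.0% and 23.9%. Of the genes called higher, 5 of the 8 and 4 of the 6 were undetected on every AAV-V array and were tested through groups in which they were bright. The 3 others, Cyp2c70, Fdx1 and Por, had negative differences in AAV-GP73 of -0.85, -0.73 and -0.48 that did not pass. The list's median log2 difference was 1.93 and 2.01, beside 0.39 and 0.01 for all genes. Hsd17b4 and Amacr, peroxisomal enzymes of side-chain shortening, and Scp2, the sterol carrier protein whose long form is the peroxisomal thiolase, had the largest rises in AAV-GP73. Hsd17b4 rose from a mean of 2.88 to 6.84, by 3.96 (SE 0.48, adjusted p = 0.000222), and was at least 6.6-fold higher from the detection bound. Amacr rose by 3.7 (SE 0.34, adjusted p = 5.92e-05), at least 3.91-fold, and Scp2, detected on all 9 arrays, by 2.91 (SE 0.35, adjusted p = 0.000222).

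In AAV-V HFD, Hsd17b4 rose by 2.88 (adjusted p = 0.00136, at least 3.12-fold), Amacr by 2.76 (adjusted p = 0.000657, at least 2.03-fold) and Acox2, the branched-chain acyl-CoA oxidase of this step, by 2.2 (adjusted p = 0.00239, at least 2.98-fold). Scp2 was called higher under all 7 scalings in both comparisons. The calls of Hsd17b4, Amacr and Acox2 were lost under 1 of the 7 scalings, normexp, at 0.69, 0.13 and -0.12 in AAV-GP73 and at -0.07, -0.47 and -0.28 in AAV-V HFD. All 4 lay above the median of all genes under every scaling. The list's direction itself depended on normexp, under which 5 of 11 differences in AAV-GP73 and 2 of 11 in AAV-V HFD were positive, though 9 and 10 of the 11 were above the median of all genes, and 2 genes were called higher in each.

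**Figure D3:**
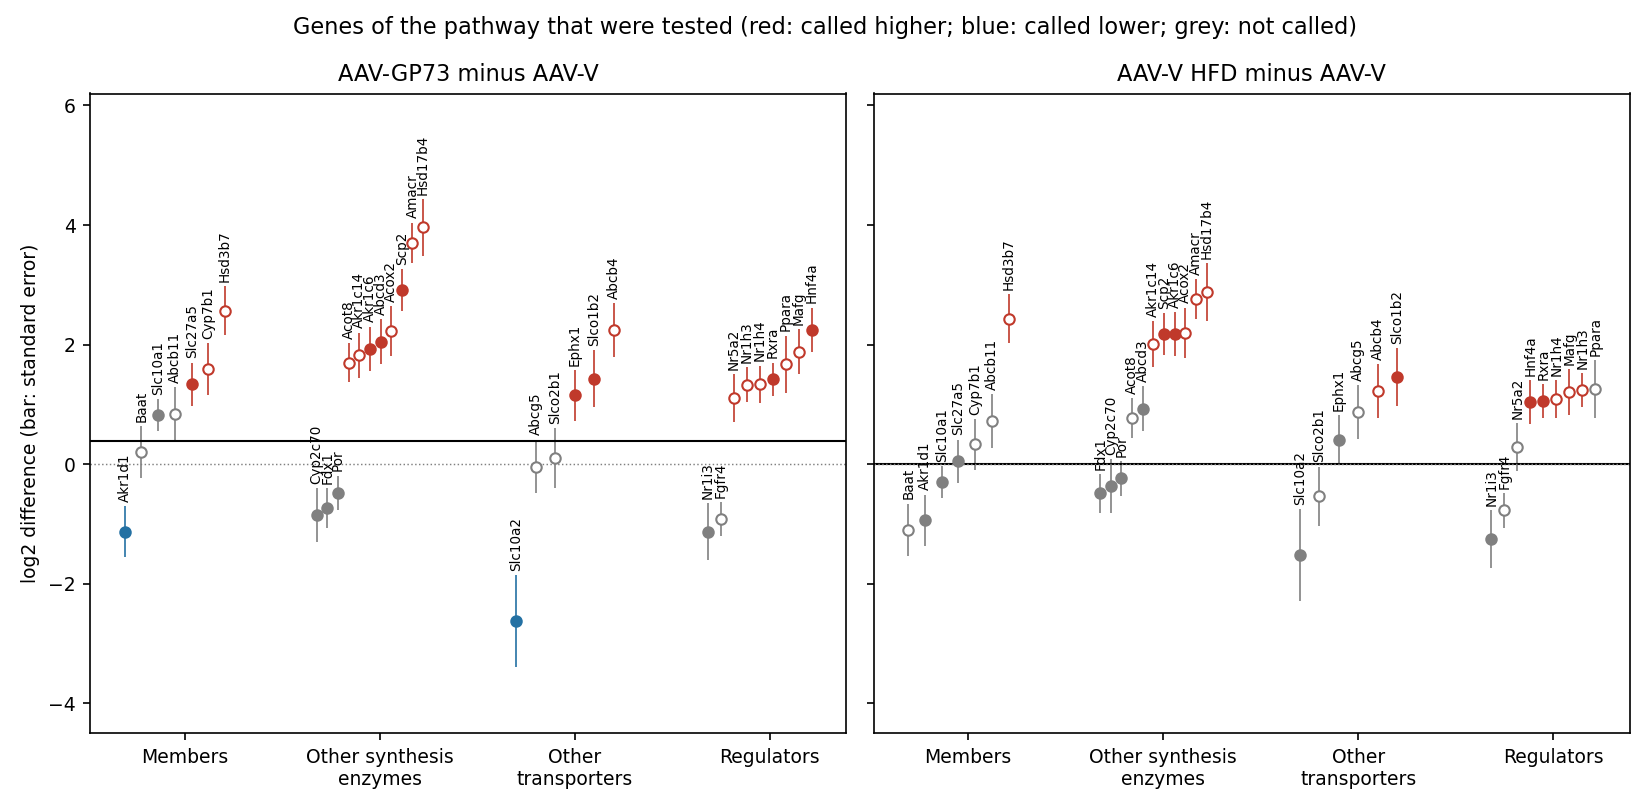
Log2 difference from AAV-V (vertical axis, bars are standard errors) of each tested member and of the tested genes of 3 other pathway lists (1 regulator is not drawn), in AAV-GP73 (left) and AAV-V HFD (right). Red points were called higher, blue points lower and grey points neither, open points were undetected on every AAV-V array, and the black line is the median of all genes; most other synthesis enzymes are red, and Slc10a2 and Akr1d1 are the only blue points, on the left.

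Of 16 other transporters and related proteins, 6 were tested, among them an epoxide hydrolase, an enzyme, which was called higher in AAV-GP73. AAV-GP73 livers had 3 of the 6 called higher and 1 lower, against 25.1% and 20.8% of all genes. AAV-V HFD livers had 2 and 0, against 13.0% and 23.9%. Of the genes called higher, 1 of the 3 and 1 of the 2 were undetected on every AAV-V array. The gene called lower was Slc10a2, the apical sodium-dependent bile acid transporter known from the ileum and bile duct epithelium, which fell by 2.63 (SE 0.77, adjusted p = 0.0139) in AAV-GP73 and differed by -1.52 (adjusted p = 0.132) in AAV-V HFD. It was below the median of all genes under all 7 scalings in both, its call in AAV-GP73 was lost with spike-ins (-0.69, adjusted p = 0.404), and its difference in AAV-V HFD turned to 0.2 with spike-ins and was called after normexp (-1.3). The medians of this list were 0.63 in each comparison, beside 0.39 and 0.01 for all genes. After normexp 0 of the 6 differences were positive in AAV-GP73 livers, and 1 was positive in AAV-V HFD livers. The calls then became 0 higher and 1 lower in AAV-GP73 and 0 and 3 in AAV-V HFD.

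Of 20 regulators, 10 were tested. AAV-GP73 livers had 7 of these called higher and 0 lower, against 25.1% and 20.8% of all genes, and AAV-V HFD livers 5 and 0, against 13.0% and 23.9%. The medians were 1.33 and 1.05, beside 0.39 and 0.01. Of the genes called higher, 5 of the 7 and 3 of the 5 were undetected on every AAV-V array. After normexp 2 of the 10 differences were positive in each comparison, and the calls became 1 higher and 0 lower in AAV-GP73 and 0 and 5 in AAV-V HFD. Hnf4a, the hepatocyte nuclear receptor known to act on several members, rose by 2.25 (SE 0.37, adjusted p = 0.000657) in AAV-GP73 and by 1.04 (SE 0.37, adjusted p = 0.0417) in AAV-V HFD, and both differences were positive under all 7 scalings. Its call in AAV-GP73 held under each of them, and that in AAV-V HFD was lost with the median scaling (0.94) and after normexp (0.11). Nr1h4 (FXR), the bile acid receptor, rose by 1.34 (SE 0.31, adjusted p = 0.00429, at least 1.74-fold) and by 1.09 (SE 0.31, adjusted p = 0.016, at least 1.47-fold), and turned to -0.35 and -0.67 after normexp, while the median scaling left 0.99 in AAV-V HFD, under the 2-fold threshold. Nr5a2 (LRH-1), an activator of hydroxylase genes, was undetected on every AAV-V array and was tested through AAV-GP73 alone. Its difference there was 1.1 (SE 0.4, adjusted p = 0.0384) with no fold from the bound, so a rise cannot be read from it. The call was lost with the median scaling (0.94) and after normexp (-0.75). In AAV-V HFD Nr5a2 differed by 0.28 (adjusted p = 0.602), was called higher under 4 scalings (1.5 to 2) and lower after normexp (-1.17).

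The receptor of the intestinal feedback signal, Fgfr4, was undetected in AAV-V and differed by -0.92 (adjusted p = 0.022) in AAV-GP73 and -0.77 (adjusted p = 0.0552) in AAV-V HFD, both under the 2-fold threshold. The sign depended on the scaling, with 0.18 and 0.46 for the 75th percentile of all probes and 1.02 and 0.96 for spike-ins. In AAV-GP73, Fgfr4 was called lower with the median scaling (-1.08, adjusted p = 0.00864) and higher with spike-ins (adjusted p = 0.0076). In AAV-V HFD, Fgfr4 read -1.16 after normexp. Its co-receptor Klb and Nr0b2 (SHP), the repressor induced by FXR, were detected on no array. Nr1i3 (CAR), a xenobiotic-sensing nuclear receptor, had the largest negative difference of the regulators, at -1.13 (adjusted p = 0.0697) in AAV-GP73 and at -1.25 (adjusted p = 0.0574) in AAV-V HFD, and was not called. It was called lower under 3 other scalings in each comparison, from -1.27 to -1.29 and from -1.08 to -1.35, and turned to 0.81 and 0.48 with spike-ins.

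Markers of liver cells and zones were read beside these results. Over all genes tested, the shares called higher and lower were 25.1% and 20.8% in AAV-GP73 and 13.0% and 23.9% in AAV-V HFD. Of the 8 hepatocyte markers, AAV-GP73 livers had 1 called higher and 1 lower, and AAV-V HFD livers 0 and 4. Of 5 tested pericentral markers, AAV-GP73 livers had 3 higher and 1 lower, and AAV-V HFD livers 1 and 1. The summed signal of all 6 listed pericentral markers, undetected ones included, was 216 to 500 in AAV-V, 746 to 1380 in AAV-GP73 and 486 to 740 in AAV-V HFD. Of 6 tested periportal markers, AAV-GP73 livers had 2 higher and AAV-V HFD livers 1, with sums of 172 to 386, 750 to 1290 and 206 to 1030. The periportal marker Hal, called higher in AAV-GP73, was undetected on every AAV-V array. The pericentral marker Cyp1a2, called lower in AAV-V HFD, was undetected in both groups compared. These zones differ in bile acid enzymes, and the part of zonal markers in the members' differences was not tested.

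Among markers of other cells, 2 of 6 for Kupffer cells, 3 of 6 for stellate cells and 1 of 6 for endothelial cells were tested. No Kupffer marker was called by limma in either comparison, AAV-GP73 livers had 1 stellate marker higher and 1 lower, AAV-V HFD livers had 2 lower, and the endothelial marker was higher in AAV-GP73. Signals were also summed over all 6 listed markers of each type, undetected ones included. In AAV-V, 5 Kupffer, 4 stellate and 5 endothelial markers were detected on no array. The sums in AAV-V, AAV-GP73 and AAV-V HFD were 79.5 to 144, 67.6 to 112 and 80.1 to 150 for Kupffer cells. They were 153 to 279, 159 to 190 and 60.7 to 127 for stellate cells, and 26.9 to 49, 27.7 to 42.3 and 13.2 to 23 for endothelial cells. The cholangiocyte markers summed to 34.2 to 51.7, 11.3 to 19.3 and 7.03 to 19.3, mostly from undetected spots. The endothelial marker tested, Clec4g, was undetected on every AAV-V array and was tested through AAV-GP73 alone. It was at least 1.3-fold higher there from the detection bound. The stellate marker Reln, called lower in AAV-V HFD, was undetected in both groups compared. The shares over all genes are those given for the hepatocyte markers. The part of these other cell types in the members' differences was not tested.

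The genes most alike to the members over the 9 arrays were found by correlation with the mean centred signal of the members detected on all arrays, which were Slc27a5 and the brighter Slc10a1 probe. Among 2427 other genes detected on all arrays, the highest Pearson r were those of Dcn (0.97), the transcript ENSMUST00000121009 (0.963), Hba-a2 and Hba-a1 (both 0.951) and Psma4 (0.943). Dcn is also on the stellate list and the Hba genes encode haemoglobin. The arrays share groups, slides and scaling, so these values describe the 9 arrays and carry no p.

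RefSeq promoters on GRCm38.p6, from 250 bases before to 50 after the start, were found for 6 of the 10 members, Abcb11, Akr1d1, Cyp27a1, Cyp8b1, Hsd3b7 and Slc10a1, which had 7 promoters in all. The HNF4A motif CAAAGTCCA, searched on both strands, lay in that of Cyp8b1 alone, where 0.475% of 32851 promoters hold it, at chr9:121916353-121916382 on the minus strand, with the motif in capitals.
Cyp8b1 promoter: agcctctgagCAAAGTCCAagggcaggaac
The LRH-1 motif CAAGGTCA lay in none of the 7, against 1.56% of all promoters. The nuclear receptor motif AGGTCA, which is part of it, lay in those of Abcb11, Akr1d1 and Slc10a1, against 16.3% of all promoters. A match describes letters in the window and not a site that is used.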

How the data were processed

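Liver RNA, labelled with Cy3, was read on 9 one-colour Agilent arrays, 3 in each of 3 groups taken from the labels. The authors deposited intensity values, the processed signals of Feature Extraction (version 12.0.3.1 in the file headers, 10.7 in the submitters' processing notes), with background subtracted and arrays not scaled to each other. They also deposited a log2 table of 56605 probe names, whose normalization is not given in the sources used here and which served as an alternative. Each array has 62976 spots, 59305 of them not controls, with 98 to 151 marked as outliers and left out and 0 saturated. Precision is limited by how few arrays each group has.

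Calculations used R 4.3.3 and limma 3.58.1. The log2 processed signals of an array were moved by a constant that made the 75th percentile of 4864 spots, those detected on every array, equal. Spots of a probe were averaged, a gene name took its brightest probe, and the 5763 genes detected throughout at least 1 group entered a joint fit (lmFit, eBayes). A call needed a 2-fold change and a Benjamini-Hochberg adjusted p under 0.05 over all genes tested, and every adjusted p in the text is of this kind, except that those of the dimmer Slc10a1 probe come from a fit of single probes (6593 tested). The fit was tested on simulated data. A bound puts each undetected value at the dimmest detected signal of its array, unless its own value is higher. Bounds in the text are those of the main scaling unless another is named, and they move with the scaling. Alternatives were other scalings (75th percentile of all probes, median, quantile, spike-in, normexp with an offset of 50, the authors' values), filters on dim probes, probes tested singly, the methods' t-test, other fits, and each array left out. From the other lists the text names Nr1h4, Nr0b2, Nr5a2, Fgfr4, Klb, Hnf4a and the 3 largest rises and falls in each comparison with AAV-V. A gene that this rule names is not reported here. The members and lists were chosen with earlier results of these data known. The dimmer Slc10a1 probe in place of the brighter, the 16-base shared stretch and the marker genes named singly were chosen after seeing the values. Coordinates are those of mm9 in the array files, and RefSeq tables of assembly GRCm38.p6 served for transcript names and promoters only.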

Additional observations from a re-analysis of the deposited data

How the results depend on the processing

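Signal over background is the main limit, since the AAV-V arrays detected the fewest spots and the scaling decides the sign of many differences. Among all genes called in AAV-GP73, 54.7% were higher, against 88.3% with the 75th percentile of all probes, 65% with quantile normalization, 46.4% with the median, 98.4% with spike-ins, 9.94% with normexp and 66.5% with the authors' values. For AAV-V HFD the shares were 35.2%, 93.4%, 63%, 29.8%, 98.3%, 1.18% and 65.3%, and for AAV-GP73 against AAV-V HFD they were 96.5%, 77.6%, 86.7%, 94.2%, 95.5%, 100% and 83.3%.

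The 4 members called in AAV-GP73 (3 higher, 1 lower) became 6 (6 and 0) with the 75th percentile of all probes and with spike-ins, 5 (5 and 0) with quantile normalization and with the authors' values, 6 (3 and 3) with no filter, and 2 with normexp, Akr1d1 lower and Slc10a1 higher, so that none of the 3 higher calls was kept there. They became 1 when detection on all arrays was required and 2 with the methods' t-test after adjustment, where the unadjusted test called 3. Among the 5763 genes tested, 3591 were called higher and 475 lower with the 75th percentile of all probes, and 4421 and 70 with spike-ins. The counts were 2125 and 1142 with quantile normalization, 2199 and 1107 with the authors' values, and 116 and 1051 with normexp. The 1 member called in AAV-V HFD became 4 with the 75th percentile of all probes, 3 with quantile normalization, 2 with the median, 5 with spike-ins, 4 (all lower) with normexp, 3 with the authors' values, 5 with no filter, 0 with detection on all arrays, 2 with each probe tested, 0 with the adjusted t-test and 2 with the dimmer Slc10a1 probe. Among all genes tested there, 3154 were called higher and 223 lower with the 75th percentile of all probes, and 1833 and 1078 with quantile normalization. The counts were 640 and 1507 with the median and 3809 and 66 with spike-ins. They were 35 and 2927 with normexp and 1917 and 1019 with the authors' values. The 0 members called between AAV-GP73 and AAV-V HFD became 2 with spike-ins, 1 with normexp, 2 with the unadjusted t-test and 1 with only the groups compared. Among all genes tested in that comparison, 276 were called higher and 13 lower with spike-ins, and 39 and 0 with normexp. For the settings other than scalings, the counts over all genes are not given here. Leaving out 1 array gave 3 to 4, 1 to 2 and 0 to 1 members called in these comparisons, with 2 for AAV-V HFD when replicate 1 or 3 of AAV-V or replicate 3 of AAV-V HFD was absent, and 1 in the last comparison when replicate 3 of AAV-V HFD was absent. The Akr1d1 call in AAV-GP73 was lost with 4 of the 6 other scalings, with the methods' t-test and without AAV-V replicate 2 or 3, any AAV-GP73 replicate or AAV-V HFD replicate 2 (adjusted p 0.0564 to 0.165, limma). The causes were not tested.

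Differences that changed sign in AAV-GP73 were 0.8 for Akr1d1 with spike-ins, -0.81 for Abcb11, -0.53 for Cyp7b1, -0.86 for Baat and -0.18 for Hsd3b7 with normexp, and -0.88 for Slc10a1 on its dimmer probe. In AAV-V HFD, the 75th percentile of all probes gave 0.29 for Akr1d1, 0.12 for Baat and 0.92 for Slc10a1. Quantile normalization gave 0.22 for Baat and 0.44 for Slc10a1, the median gave -0.06 for Slc27a5, and the authors' values gave 0.27 for Baat and 0.45 for Slc10a1. Spike-ins gave 0.78 for Akr1d1, 0.62 for Baat and 1.42 for Slc10a1, and normexp gave -1.05 for Abcb11, -1.02 for Cyp7b1, -0.56 for Slc27a5, 0.08 for Slc10a1 and -0.4 for Hsd3b7. Between AAV-GP73 and AAV-V HFD, Abcb11 became -0.02, -0.12 and -0.11 with all probes, quantiles and the authors' values, Hsd3b7 -0.06 with the latter pair, and Akr1d1 0.02 with spike-ins and 0.22 with normexp. With 1 array left out, Slc27a5 in AAV-V HFD ranged from -0.19 to 0.35, and between AAV-GP73 and AAV-V HFD Hsd3b7 ranged from -0.04 to 0.35, Akr1d1 from -0.55 to 0.04 and Abcb11 from -0.19 to 0.27. Replicate numbers did not pair the samples (correlations of deviations -0.12 to 0.17), and with the replicate block the members called were again 4, 1 and 0.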
